A study of Mus musculus with 44 samples.

Results

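The comparison asks for which genes Apoe knock-out, against APOE33, had a different effect in microglia than in astrocytes. Both were grown as primary mouse cultures. For each gene the knock-out effect, which is the level in Apoe knock-out libraries against that in APOE33 libraries, was estimated in each cell type, and the effect in astrocytes was subtracted from that in microglia. This difference of effects is the interaction. It rests on 20 of the 44 libraries of the series, all tagged batch 1: 6 APOE33 and 4 knock-out libraries of each cell type. APOE33 had 4 female and 2 male libraries in each cell type, and the knock-out had 1 female (replicate 1) and 3 male. In APOE33 mice human APOE3 takes the place of mouse Apoe, so these controls lack the mouse gene too and differ from wild-type cells. The 12 APOE44 libraries of the same batch, from mice with human APOE4 in that place, entered the fits as a further genotype, and wild-type libraries, all tagged batch 2, are used for the level of Apoe alone. No cells were treated, all were cultured in media made for human cells, and the ages of the animals are not given in the labels used here. Whether each replicate came from its own animal or its own culture is not stated in the labels either. The p-values therefore rest on the spread among these libraries alone, which may be technical.

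Apolipoprotein E is the main lipid carrier protein of the brain. Astrocytes release it in lipoprotein particles that bring cholesterol and phospholipid to other cells, and microglia make it as they take up and recycle lipid. Cells gauge sterol through SREBP2, a transcription factor that is released from the endoplasmic reticulum when sterol is low and turns on the genes for cholesterol synthesis and uptake. LXR receptors do the reverse: bound by oxysterols, they turn on genes that export cholesterol. Microglia in the healthy brain keep a homeostatic programme that depends on TGF-beta signalling and on the transcription factor Sall1, and it is partly lost in culture.

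The 20 libraries hold 88991799 to 120505499 counts each, with RNA integrity numbers of 9.1 to 9.9. Of the single-digit counts above 0 in each library, 62.44 to 78.67% were even numbers. That share was 75.54% and 74.86% in APOE33 astrocyte replicates 4 and 6 and 78.67% in APOE33 microglia replicate 3. Knock-out libraries had 62.44 to 68.81%. Whether both reads of a pair were counted was not tested, so the totals may exceed the number of read pairs. Own-lineage markers fitted the labels: 18 astrocyte markers summed to 13200 to 18800 CPM (counts scaled to a common library size) in astrocytes and 39.5 to 156 in microglia, and 18 microglia and macrophage markers summed to 35400 to 44100 in microglia and 207 to 709 in astrocytes. Among the 4 knock-out astrocyte libraries, replicate 1, the only female, had the lowest median correlation with the others (0.9939, against 0.9972 to 0.9975). APOE33 replicate 2 was the lowest of its group in both cell types, at 0.9935 in astrocytes and 0.9923 in microglia. By a chi-square per gene between raw counts, APOE33 microglia replicate 3 stood at 92.8 to 168 from the others of its group. Replicate 2 stood at 28.0 to 124. One APOE33 astrocyte library, replicate 1, is tagged WT in one label and APOE33 in its title and source, and was kept as APOE33. In microglia Cd14 and Ccnb2 ran at higher levels in APOE33 replicates 1 to 3 than in 4 to 6, and the labels used here give no term that separates these libraries.

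The knock-out effect differed between the cell types for 2755 of 21647 genes tested (12.7%) at an adjusted p under 0.05, and 5653 had an unadjusted p under 0.05. It was higher in microglia for 1338 genes (6.18%) and lower for 1417 (6.55%). Over all genes tested the median interaction was -0.03 on the log2 scale. In astrocytes alone 1714 of 20481 genes were higher in the knock-out (8.37%) and 1808 lower (8.83%), and in microglia 1863 of 17143 were higher (10.9%) and 2036 lower (11.9%). Of the 2755 genes, 1298 (47.1%) were called in microglia only, 708 (25.7%) in astrocytes only and 341 (12.4%) in neither cell type by itself. Another 81 (2.94%) changed the same way in both cell types, by different amounts, out of 584 genes that changed the same way in both.

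The remaining 327 genes (11.9%) were called in both cell types with opposite signs, which is 2.04% of the 16067 genes tested in both. Of them 179 (1.11%) fell in astrocytes and rose in microglia, and 148 (0.921%) rose in astrocytes and fell in microglia. The interaction had a median size of 0.86 on the log2 scale in these genes, against 0.55 over all 2755. It was 1.12 in the 81 called genes of the same sign. Effects of opposite sign add up in the interaction, so its larger size in the opposite genes follows from how they were chosen. Genes present at similar levels in both cell types, with a mean of at least 1 CPM in each and less than 10-fold apart, are called shared below: 1954 of 9693 shared genes were called in the interaction (20.2%), and 241 of the 327 opposite genes were shared. The count of opposite genes depended on the libraries used. It was 166 without knock-out astrocyte replicate 1, 131 when only the knock-out and APOE33 libraries were fitted and 67 in male libraries, and the interaction count in the last 2 settings was 1769 and 841. In these bulk libraries fewer cells of a type and less RNA of a gene per cell cannot be told apart.

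**Figure D1:**
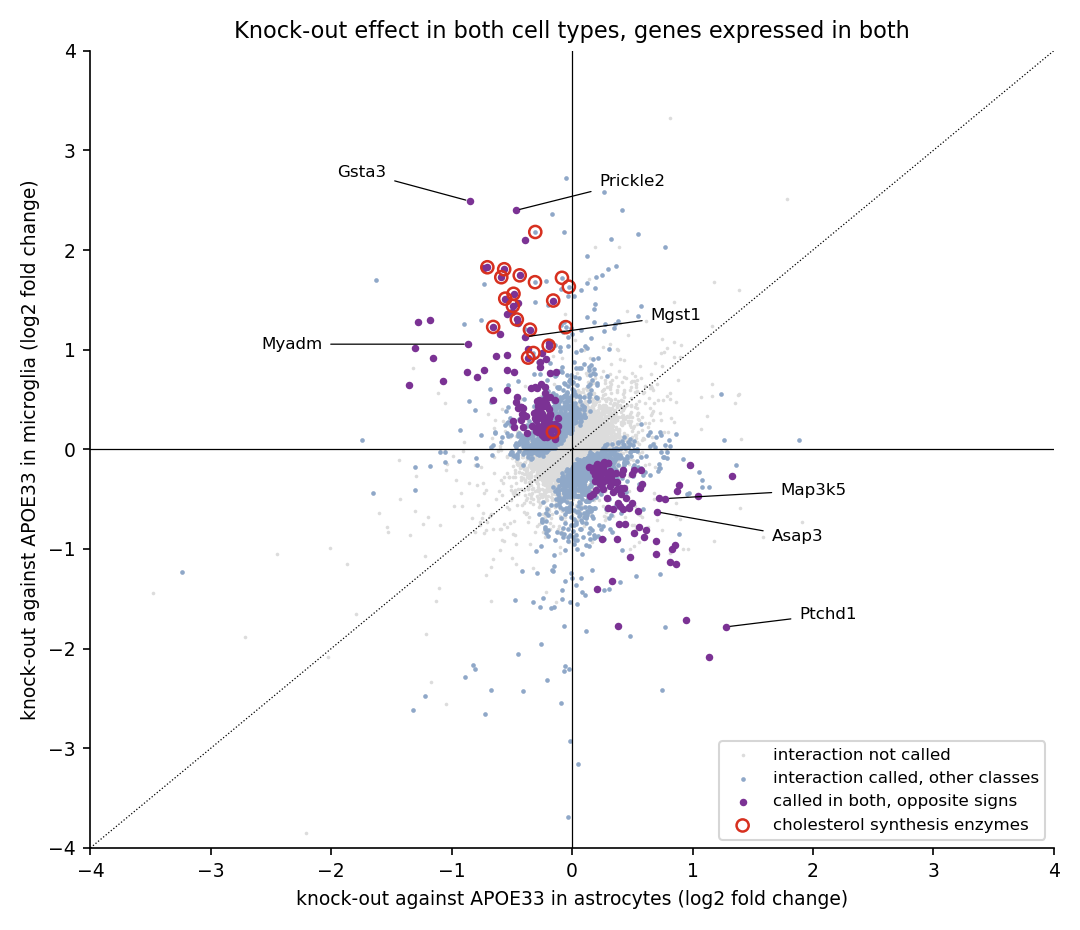
Knock-out effect on each shared gene in astrocytes (horizontal axis, log2 fold change of knock-out against APOE33) and in microglia (vertical axis, same scale), 1 point per gene, with a dotted line where both effects are equal. Of the 9691 genes drawn, the 241 called in both cell types with opposite signs are purple and lie at the upper left and lower right, other genes called in the interaction are blue, and the 20 cholesterol synthesis enzymes, circled, lie in the upper left.

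Mouse Apoe itself was low in both cell types, and its interaction was not called. In APOE33 astrocytes it ran from 19.6 to 30.3 CPM (median 22.3), and the 4 knock-out libraries had 9.19, 11.2, 13.1 and 11.6. In APOE33 microglia it ran from 44.6 to 81.3 CPM (median 49.7), and the knock-out libraries had 17.7, 9.28, 7.45 and 27.8. The groups did not overlap in either cell type, and wild-type libraries, scaled over the whole series, held 4950 to 6400 CPM in astrocytes and 45600 to 61100 in microglia. The mouse gene thus stood far below the wild-type level in both genotypes compared here. The residual signal fell by 1.21 (SE 0.15, adjusted p = 0.000245) in astrocytes and by 1.85 (SE 0.32, adjusted p = 0.00111) in microglia on the log2 scale, and the interaction of -0.65 (SE 0.36) had an adjusted p of 0.259. Without knock-out microglia replicate 4 it was called, at -1.06 (adjusted p = 0.018). Human APOE was not analysed here.

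The clearest group among the genes with different effects was cholesterol synthesis. All 20 enzymes of the pathway, which leads from acetyl-CoA to cholesterol, had a higher knock-out effect in microglia than in astrocytes, where 6.18% of all genes did. In microglia all 20 rose, with a median log2 change of 1.5. In astrocytes 12 fell, none rose and all 20 estimates were below 0, with a median of -0.36. The interaction had a median of 1.84 and ran from 0.33 for Ebp to 2.52 for Fdps. The 12 enzymes of opposite sign included Hmgcs1, Mvk, Mvd, Idi1, Fdps, Fdft1, Sqle, Cyp51, Msmo1, Nsdhl and Sc5d. No enzyme had a lower effect in microglia at an unadjusted p under 0.05 (edgeR), and DESeq2 called none lower. With any 1 of the libraries left out all 20 stayed called in the interaction, 10 to 13 fell in astrocytes and 18 to 20 rose in microglia.

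Promoters are shown for 4 enzymes of opposite sign that stand at successive stages of the pathway, since members that move together invite a look at the sequence they share. Each window holds the 250 bases before the start site (RefSeq, GRCm38.p6), printed 5′ to 3′ on the gene's strand. Hmgcs1 (HMG-CoA synthase) lies at chr13:119690101-119690350 on the plus strand, Mvd (mevalonate diphosphate decarboxylase) at chr8:122443423-122443672 on the minus strand, Msmo1 (the sterol C4 methyl oxidase) at chr8:64733579-64733828 on the minus strand and Nsdhl (the sterol C4 decarboxylase) at chrX:72918271-72918520 on the plus strand. Capitals mark matches to CCAAT, the core of the NF-Y site, and to TCACNCCAC, a form of the sterol regulatory element, on either strand, so CCAAT also appears as ATTGG.
Hmgcs1: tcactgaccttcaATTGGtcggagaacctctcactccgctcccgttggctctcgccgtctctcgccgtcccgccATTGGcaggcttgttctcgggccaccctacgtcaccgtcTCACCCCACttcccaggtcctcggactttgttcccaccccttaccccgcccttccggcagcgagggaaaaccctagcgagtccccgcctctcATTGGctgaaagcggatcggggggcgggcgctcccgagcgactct
Mvd: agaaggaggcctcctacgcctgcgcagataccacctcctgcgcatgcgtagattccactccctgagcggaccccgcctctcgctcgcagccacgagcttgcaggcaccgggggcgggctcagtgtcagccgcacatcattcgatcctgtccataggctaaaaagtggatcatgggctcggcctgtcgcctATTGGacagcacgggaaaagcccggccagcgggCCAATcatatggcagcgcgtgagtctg
Msmo1: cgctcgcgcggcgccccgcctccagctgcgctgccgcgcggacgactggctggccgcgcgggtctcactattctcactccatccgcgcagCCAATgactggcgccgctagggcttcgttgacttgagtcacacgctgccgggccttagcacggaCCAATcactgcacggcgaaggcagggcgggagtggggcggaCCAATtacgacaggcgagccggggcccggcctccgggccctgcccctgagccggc
Nsdhl: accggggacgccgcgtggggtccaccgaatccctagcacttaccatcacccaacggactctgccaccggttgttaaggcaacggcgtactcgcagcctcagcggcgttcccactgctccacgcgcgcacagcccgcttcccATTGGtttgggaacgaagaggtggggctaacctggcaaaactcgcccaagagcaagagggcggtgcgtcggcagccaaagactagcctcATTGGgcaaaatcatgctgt

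Windows were found for 15 of the 20 enzymes. CCAAT stood in at least 1 window of 14 of these 15 genes (93.3%), all but Acat2. It stood in 37.5% of all 27025 genes with a window. By window, 14 of 18 had it (77.8%), against 33.8% of all windows. Dhcr7 and Pmvk also had windows without it. TCACNCCAC stood in the window of Hmgcs1 alone, at -137 to -129 from the start, and in 1.22% of all genes. The 2 motifs do not overlap in the 4 windows shown. A match is a string of letters and is not evidence of binding.

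Hmgcs1, which condenses acetyl-CoA units into HMG-CoA, ran from 113 to 131 CPM (median 127) in APOE33 astrocytes and stood at 66.7, 95.7, 90 and 78.2 in the knock-out. In APOE33 microglia it ran from 43.6 to 106 CPM (median 73) and in the knock-out libraries it stood at 174, 140, 165 and 153. All knock-out astrocytes were below and all knock-out microglia above every APOE33 library of their cell type. The change was -0.66 (SE 0.081, adjusted p = 0.000186) in astrocytes and 1.23 (SE 0.23, adjusted p = 0.00203) in microglia on the log2 scale.

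Sqle, squalene epoxidase, ran from 91.2 to 99 CPM (median 95.8) in APOE33 astrocytes against 56.6, 73.4, 72 and 64 in the knock-out. In microglia it ran from 17.1 to 73.9 CPM (median 33) in APOE33 against 140, 105, 138 and 113 in the knock-out. Again no library of one genotype reached the range of the other, although APOE33 microglia varied widely among themselves. The interaction of Sqle was 2.36 (SE 0.40, adjusted p = 0.000264). Mvd had an interaction of 2.06 (SE 0.20, adjusted p = 4.71e-07), with 6.78 ± 0.789 CPM in knock-out against 9.54 ± 0.817 in APOE33 astrocytes and 77.3 ± 8.79 against 27.4 ± 6.72 in microglia. Nsdhl fell from 21.3 ± 1.35 to 15.8 ± 1.81 CPM in astrocytes and rose from 15.0 ± 3.53 to 35.9 ± 3.93 in microglia. Fdps, farnesyl diphosphate synthase, went from 1.5 ± 0.149 to 0.958 ± 0.124 CPM and from 2.54 ± 0.983 to 8.64 ± 0.39, and since processed copies of this gene exist its counts are uncertain.

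Ebp, the sterol isomerase, had the smallest rise in microglia, 0.17 (SE 0.055, adjusted p = 0.0319), and -0.16 (adjusted p = 0.185) in astrocytes.

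Summed over the 20 enzymes, APOE33 astrocytes held 807 to 896 CPM (median 851) and knock-out astrocytes 587, 723, 725 and 630. APOE33 microglia held 477 to 1060 (median 634) and knock-out microglia 1980, 1550, 1920 and 1630. The ranges were separate in both cell types, and the sign of the shift was reversed. Within groups, APOE33 microglia replicate 5 was the highest of its group for 18 of the 20 enzymes, and knock-out astrocyte replicate 1 the lowest of its group for 14. Gene by gene, all 4 knock-out libraries were below all 6 APOE33 libraries in astrocytes for 12 enzymes (5.3% of all genes tested) and above them in microglia for 20 (7.77% of all genes), and both held for 12 enzymes against 0.448% of all genes.

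**Figure D2:**
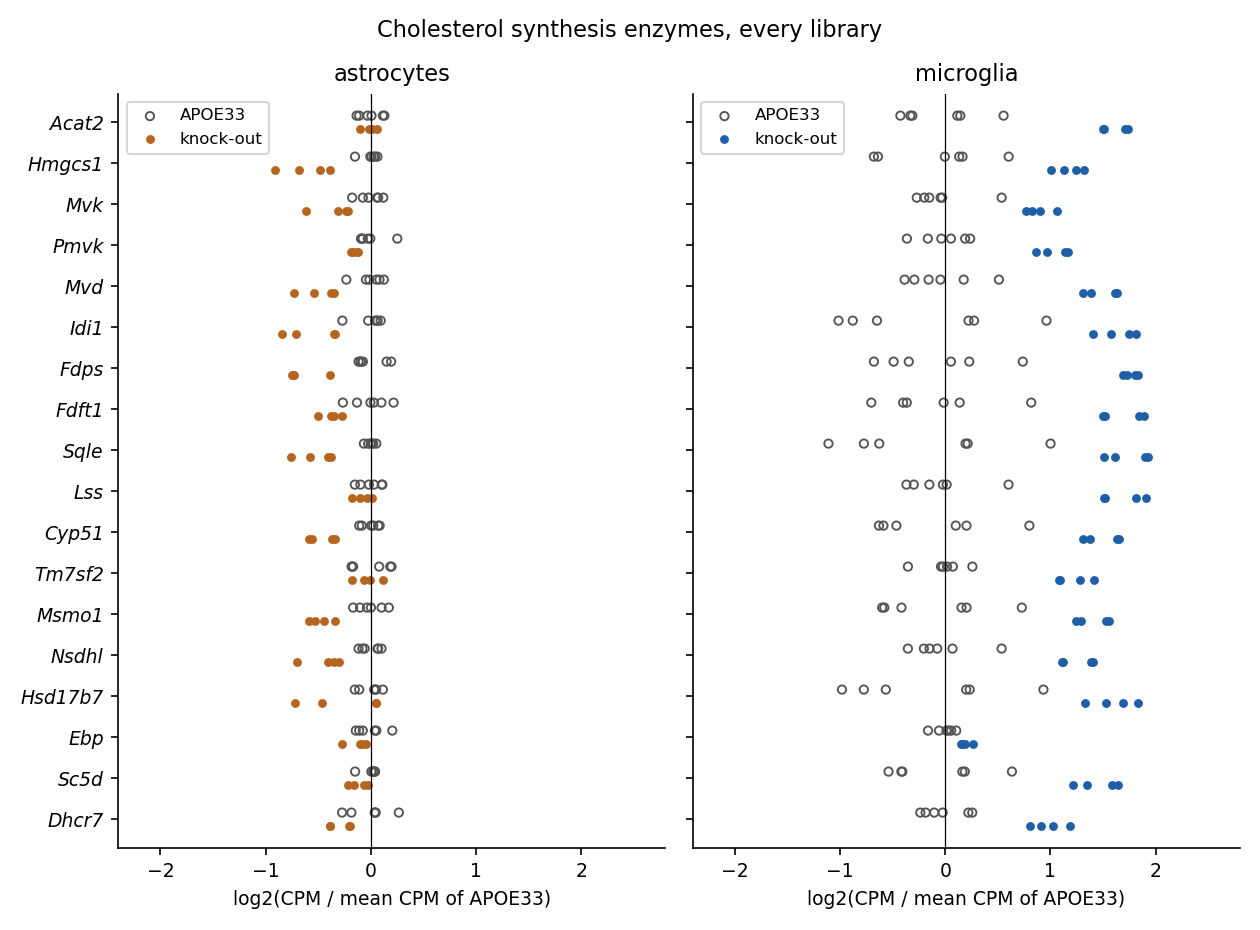
Level of 18 cholesterol synthesis enzymes in each library, as log2 of CPM relative to the mean of the APOE33 libraries of the same cell type, with astrocytes and microglia in separate panels and 1 point per library. Knock-out points lie below 0 for most enzymes in astrocytes and above 0 for every enzyme drawn in microglia.

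The other genes were read from lists of pathways and cell type markers. Counts in a list are to be set against the shares over all genes given above, 6.18% higher and 6.55% lower in the interaction, 8.37% and 8.83% in astrocytes and 10.9% and 11.9% in microglia. Small counts depended on single libraries. Over all lists, 61 of the 78 counts of 1 to 3 genes moved by over 1.5 times when some library was left out, as did 27 of the 52 counts of 4 to 9 genes and 3 of the 16 counts of 10 or more. Where a list had no call in a direction by edgeR, at most 4 of its members had an unadjusted p under 0.05 in that direction and DESeq2 called at most 3.

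Genes of sterol uptake and SREBP control moved in part with the enzymes. Of 16 tested, 6 had a higher effect in microglia (Lrp8, Scarb1, Srebf2, Insig1 and Stard4 among them) and 2 a lower one (Insig2 and Mylip), with a median interaction of 0.36. In astrocytes 2 rose and 4 fell, and in microglia 7 rose and 2 fell. Stard4, a carrier of cholesterol between membranes, ran from 35.9 to 83.8 CPM (median 51.2) in APOE33 microglia and stood at 140, 128, 147 and 129 in the knock-out. In APOE33 astrocytes it ran from 24.7 to 31.9 CPM (median 28.4), with 15.8, 24.5, 22.5 and 19.1 in the knock-out. The groups were apart in both cell types and in opposite order. The change was -0.54 (SE 0.11, adjusted p = 0.00517) in astrocytes and 1.36 (SE 0.23, adjusted p = 0.000849) in microglia, an interaction of 1.89 (SE 0.27, adjusted p = 4.11e-05).

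Insig1, which holds SREBP in the endoplasmic reticulum and is itself a target, rose by 1.45 (SE 0.17, adjusted p = 4.77e-05) in microglia, with -0.20 (adjusted p = 0.261) in astrocytes. Its APOE33 microglia ran from 89.3 to 165 CPM (median 107) against 361, 252, 298 and 286 in the knock-out. Lrp8, a lipoprotein receptor, fell in astrocytes from 53.6 ± 11.2 to 39.4 ± 8.18 CPM and rose in microglia from 24.6 ± 6.03 to 42.9 ± 5.78. Srebf2, the gene for SREBP2, fell by 0.29 in astrocytes and rose by 0.61 in microglia. Mylip, an LXR-induced ubiquitin ligase, fell by 0.45 in microglia. Without knock-out astrocyte replicate 1 the falls in astrocytes went from 4 genes to 2 and the opposite genes from 4 (with Lrp8, Srebf2 and Stard4 among them) to 2. Each rise in astrocytes (Vldlr and Mbtps2) was lost without some of the libraries: none was left without APOE33 replicate 3 or knock-out replicates 1 or 3.

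Among 21 tested LXR targets and efflux genes, 4 had a higher effect in microglia (Nr1h3, Rxra, Npc1 and Soat1) and 2 a lower one (Apod and Ch25h), with a median of 0.18. In astrocytes 2 rose and 5 fell, and in microglia 6 rose and 2 fell. Nr1h3, the gene for LXR alpha, ran from 6.2 to 13.5 CPM (median 7.62) in APOE33 microglia and stood at 26.2, 23.1, 26.0 and 32.9 in the knock-out. It rose by 1.67 (SE 0.21, adjusted p = 0.000101) there, with 0.13 (adjusted p = 0.385) in astrocytes. Knock-out microglia were all above the APOE33 range, and the astrocyte groups overlapped. Npc1, which exports cholesterol from lysosomes, rose from 414 ± 25.2 to 583 ± 39.4 CPM in microglia, and Soat1, which esterifies cholesterol for storage, rose from 361 ± 38.2 to 475 ± 33.8. Soat1 was also called lower in astrocytes (-0.19, adjusted p = 0.0366), a call lost without APOE33 replicates 1, 2 or 3 or knock-out replicates 1, 3 or 4 (adjusted p = 0.0539 to 0.114). The count of 5 falls in astrocytes went to 2 without APOE33 replicate 3 or knock-out replicates 1 or 3, and to 3 without APOE33 replicate 6 or knock-out replicates 2 or 4. Ch25h, which makes an oxysterol, fell in microglia from 123 ± 20.5 to 56.1 ± 7.75 CPM and was near 0 in astrocytes (0.0703 and 0.119 CPM). Its interaction lost the call without knock-out astrocyte replicate 2 (adjusted p = 0.0933).

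Of 30 fatty acid and lipid droplet genes, 10 had a higher effect in microglia and 1, Cpt1a, a lower one, with a median of 0.35. In microglia 13 rose and 4 fell. In astrocytes 4 fell, or 2 without knock-out replicate 1, and 2 rose, or 4 without APOE33 replicate 4 and 1 without knock-out replicate 1. Fads1, a desaturase of polyunsaturated fatty acids, rose in microglia from between 159 and 190 CPM (median 165) in APOE33 to 270, 297, 305 and 266 in the knock-out. In astrocytes it ran from 590 to 707 CPM (median 626) in APOE33 and stood at 607, 597, 539 and 549 in the knock-out, where the ranges overlap. The change was 0.76 (SE 0.07, adjusted p = 4.44e-06) in microglia and -0.17 (adjusted p = 0.0742) in astrocytes. Fads2, the partner desaturase, rose from 18.2 to 69.6 CPM in microglia and fell from 293 to 230 in astrocytes, with an interaction of 2.49. Acly, which makes cytosolic acetyl-CoA, rose in microglia by 0.49 (adjusted p = 0.000445), and its small fall in astrocytes (-0.14, adjusted p = 0.0232) was lost without APOE33 replicate 6 or knock-out replicates 1, 3 or 4 (adjusted p = 0.0505 to 0.0641). Acsl3, which activates fatty acids for droplets, rose in microglia from 25.3 ± 3.03 to 45.8 ± 3.75 CPM, and Fabp5, a fatty acid binding protein, from 511 ± 114 to 1210 ± 308.

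Outside sterol metabolism, Myadm had the smallest adjusted p of the shared genes with opposite effects. This gene for a membrane protein of the myeloid lineage (chromosome 7, 3289080 to 3300442, where another annotated gene overlaps it) ran from 45.6 to 50.2 CPM (median 47.9) in APOE33 astrocytes and stood at 22.3, 30.1, 27.8 and 30.3 in the knock-out. In APOE33 microglia it ran from 52.2 to 69.6 CPM (median 62.0), and the knock-out had 134, 125, 138 and 131. The groups were far apart in both cell types and in opposite order. It fell by 0.86 (SE 0.074, adjusted p = 5.35e-06) in astrocytes and rose by 1.06 (SE 0.071, adjusted p = 2.91e-07) in microglia, an interaction of 1.91 (SE 0.11, adjusted p = 9.47e-12).

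Mgst1, a microsomal glutathione transferase (chromosome 6, 138140316 to 138156755), ran from 245 to 312 CPM (median 269) in APOE33 astrocytes against 198, 230, 213 and 199 in the knock-out. In microglia the APOE33 range was 71.3 to 126 CPM (median 102) and the knock-out libraries stood together at 220, 218, 219 and 217. The cell types started at different levels and met near the same level in the knock-out. Its interaction was 1.51 (SE 0.15, adjusted p = 4.71e-07). Bphl, a serine hydrolase (chromosome 13, 34037597 to 34074074), fell from 49.0 ± 2.58 to 36.2 ± 1.40 CPM in astrocytes and rose from 17.2 ± 1.22 to 22.9 ± 1.86 in microglia.

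Rell1, of the TNF receptor superfamily's RELT group (chromosome 5, 63908897 to 63968897), fell from 41.0 ± 5.13 to 27.1 ± 3.38 CPM in astrocytes and rose from 37.0 ± 3.23 to 52.8 ± 3.09 in microglia. Smpdl3a, a phosphodiesterase related to acid sphingomyelinase and an LXR target (chromosome 10, 57794335 to 57811830), rose in microglia from between 186 and 261 CPM (median 219) to 501, 406, 469 and 424. In astrocytes its 4 knock-out libraries (91.7, 106, 102 and 98.5) were just below the APOE33 range of 108 to 117, and that call was lost without knock-out replicate 1 (adjusted p = 0.0671). Prickle2, a planar polarity protein, rose in microglia from 1.40 ± 0.528 to 6.40 ± 1.83 CPM and fell in astrocytes from 19.6 ± 3.02 to 14.9 ± 1.75, the latter with overlapping groups and an adjusted p of 0.0567 without knock-out replicate 1. Pgbd5, a transposase-derived gene, was called lower in astrocytes (-1.28, adjusted p = 0.048) and higher in microglia (1.27, adjusted p = 0.00527), and the astrocyte call was lost without any of APOE33 replicates 1, 2, 3 or 6 or knock-out replicates 1, 3 or 4 (adjusted p = 0.0537 to 0.112), the microglia call without knock-out replicate 1 (0.0708).

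In the other direction, Map3k5, the stress kinase ASK1 (chromosome 10, 19934472 to 20142753), ran from 9.78 to 12.3 CPM (median 11) in APOE33 astrocytes against 23, 17.4, 16.2 and 18.4 in the knock-out. In microglia it ran from 50.3 to 59.5 CPM (median 55.5) against 38.3, 42.4, 39.0 and 41.4. Both shifts left the groups apart, and the interaction was -1.28 (SE 0.11, adjusted p = 1.32e-08). Asap3, a GTPase-activating protein for Arf proteins (chromosome 4, 136206365 to 136245216), rose from 26.0 ± 3.22 to 42.9 ± 7.41 CPM in astrocytes and fell from 51.8 ± 4.31 to 35.1 ± 2.71 in microglia. Ptchd1, a patched-domain membrane protein on the X chromosome, fell in microglia from 5.29 ± 0.522 to 1.53 ± 0.685 CPM. Its rise in astrocytes, from 1.54 ± 0.622 to 3.74 ± 1.42, lost the call without knock-out replicate 1 (adjusted p = 0.121).

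**Figure D3:**
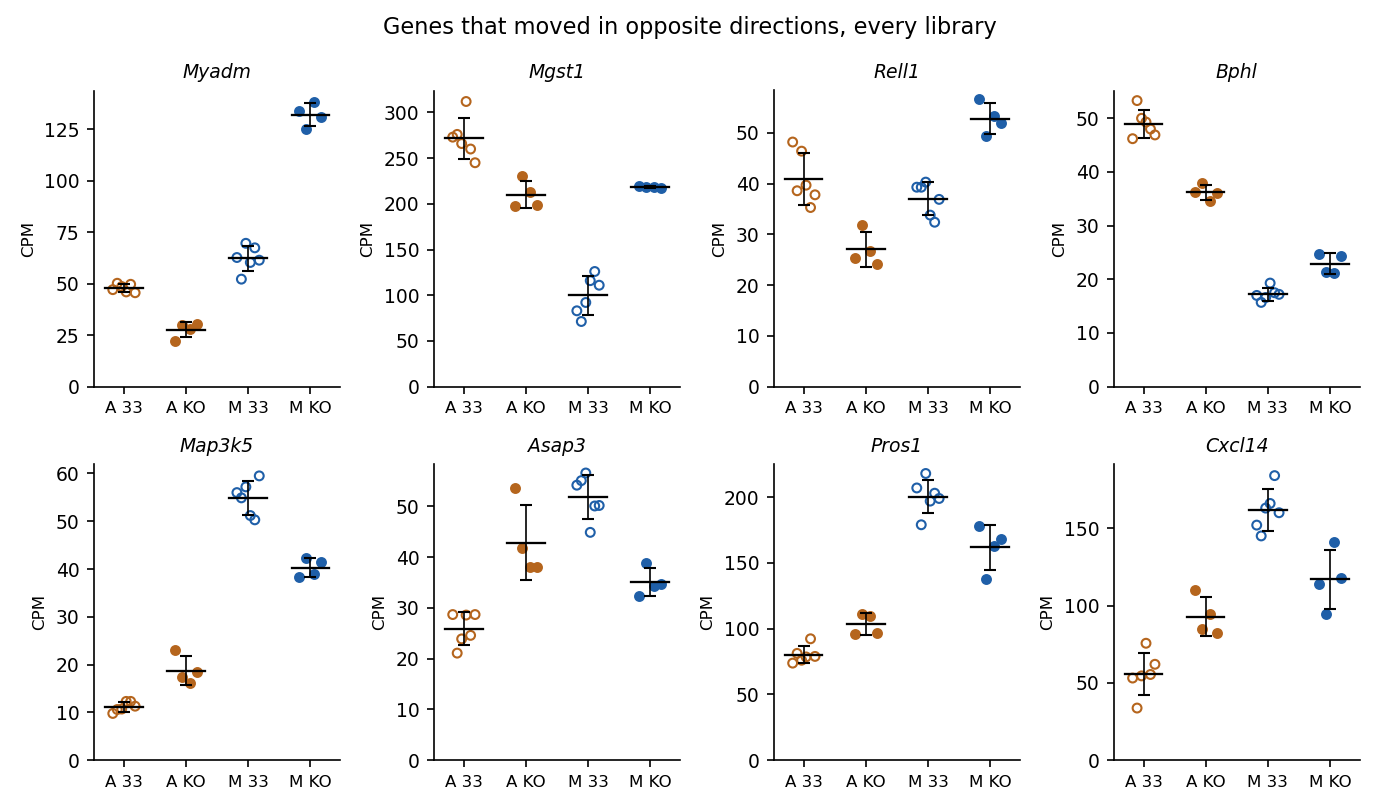
Levels in CPM of 8 genes called in both cell types with opposite signs, in APOE33 (open points) and knock-out (filled points) libraries of astrocytes (A) and microglia (M), 1 point per library, with bars at the mean and error bars of 1 SD. Myadm, Mgst1, Rell1 and Bphl fell in astrocytes and rose in microglia, and Map3k5, Asap3, Pros1 and Cxcl14 did the reverse.

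Of the 1298 genes with a different effect that were called in microglia and not in astrocytes, several stood among the 10 shared genes with the smallest p. Hivep2, a zinc finger transcription factor, ran from 13.2 to 19.3 CPM (median 17.2) in APOE33 microglia and stood at 6.73, 5.69, 4.97 and 7.93 in the knock-out, a fall of 1.37 (SE 0.13, adjusted p = 4.94e-06). In astrocytes its APOE33 range of 49.1 to 58.8 CPM held all 4 knock-out libraries, 54.1, 58.5, 56.9 and 57.1 (0.03, adjusted p = 0.679). The genotypes were separate in microglia and mixed in astrocytes. Ets1, an immune transcription factor, fell in microglia from 50.1 ± 3.86 to 26.8 ± 0.898 CPM and had 4.19 ± 0.405 and 4.22 ± 0.361 in astrocytes. Mill2, an MHC class I-like gene, rose in microglia from 0.910 ± 0.289 to 3.85 ± 0.998 CPM, with 10.1 ± 0.926 and 10.1 ± 0.211 in astrocytes. Its interaction was 2.24 (SE 0.23, adjusted p = 4.71e-07).

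Cgnl1, a junction protein, rose in microglia from 3.20 ± 1.32 to 19.7 ± 7.36 CPM. Dusp8, a phosphatase of MAP kinases, fell there from 2.16 ± 0.827 to 0.300 ± 0.115 CPM, and Cd34, a surface sialomucin, from 147 ± 62.3 to 27.0 ± 12. None of these 3 was called in astrocytes, where the estimates were -0.05, -0.02 and 0.74. Hp, the gene for haptoglobin, was called in microglia and in the interaction (3.32, adjusted p = 0.0293) at levels of 0.2 to 7.06 CPM. Its interaction was lost without any of 7 libraries, namely APOE33 replicate 3 or any knock-out replicate but the second in astrocytes, and APOE33 replicates 3 or 6 or knock-out replicate 1 in microglia (adjusted p = 0.0516 to 0.0851). Its microglia call was lost without any microglia library but APOE33 replicate 5 or knock-out replicate 4 (0.0583 to 0.103).

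Of 24 homeostatic microglia genes tested, 9 had a lower knock-out effect in microglia (37.5%, against 6.55% of all genes), none a higher one and 15 no call, with a median interaction of -0.91. In microglia 12 fell and none rose, and 21 of 24 estimates were below 0. In astrocytes 2 rose (0 to 5 with a library left out), 2 fell and 19 of 23 estimates were above 0. Beside them, all 18 estimates of the microglia and macrophage markers in astrocytes were above 0 (median 0.68, with a summed level of 373 ± 184 CPM in APOE33 and 492 ± 141 in the knock-out), and the part of such cells in the astrocyte estimates was not tested. The summed astrocyte level of the homeostatic list itself went from 4960 ± 460 to 3420 ± 616 CPM without overlap, of which Sparc, a matrix glycoprotein, made up 4290 ± 424 and 2710 ± 637. With 1 library left out the lower count ran from 7 to 13. Tmem119, a surface protein by which microglia are told from other macrophages, ran from 383 to 607 CPM (median 488) in APOE33 microglia and stood at 125, 200, 145 and 160 in the knock-out. The ranges were far apart. In astrocytes it stood at 0.727 to 4.90 CPM and 2.37 to 5.69. It fell by 1.74 (SE 0.15, adjusted p = 4.94e-06) in microglia.

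Sall1, the transcription factor that holds microglial identity, ran from 33.6 to 67.1 CPM (median 50.2) in APOE33 microglia and stood at 13.8, 5.30, 6.08 and 14.3 in the knock-out. It fell in both cell types, by 2.42 in microglia (SE 0.35, adjusted p = 0.00032) and by 0.41 in astrocytes (SE 0.059, adjusted p = 0.000511). Olfml3, a secreted protein of microglia, fell there from 817 ± 129 to 394 ± 62.8 CPM and Golm1, a Golgi membrane protein, from 228 ± 43.5 to 136 ± 7.23. P2ry12, the ADP receptor of resting microglia, fell from 123 ± 18.9 to 78.3 ± 13.6 CPM, with an adjusted p of 0.101 without knock-out microglia replicate 1. The other genes of this list with a lower effect included Mef2c, Crybb1 and Tgfbr1. Of these, Tgfbr1, a TGF-beta receptor, fell from 1850 to 1410 CPM in microglia.

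**Figure D4:**
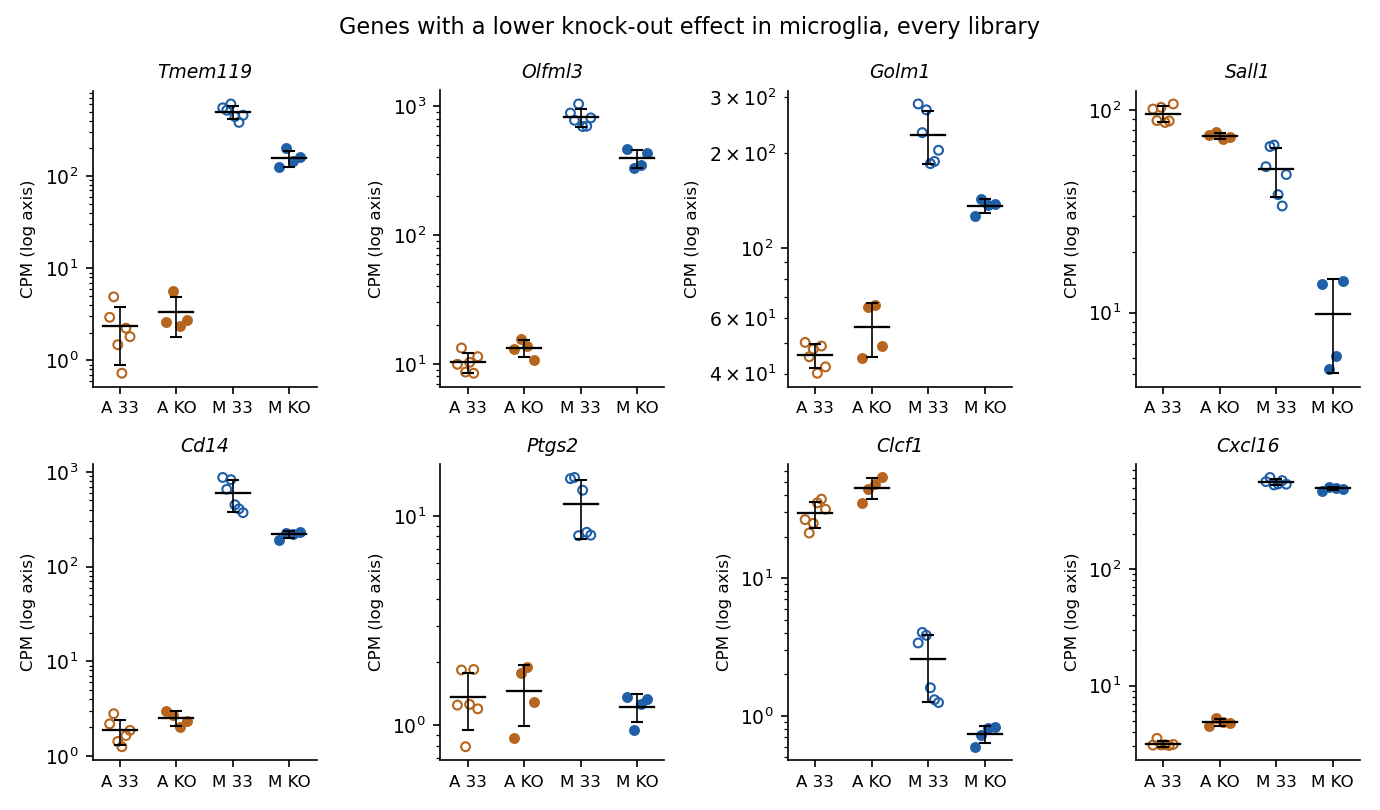
Levels in CPM (log axis) of 8 genes with a lower knock-out effect in microglia, in APOE33 (open points) and knock-out (filled points) libraries of astrocytes (A) and microglia (M), 1 point per library, with bars at the mean and error bars of 1 SD. In microglia all 4 knock-out libraries lie below the 6 APOE33 libraries for Tmem119, Olfml3, Golm1, Sall1, Cd14 and Ptgs2, and for Ptgs2 they reach the level of the astrocytes.

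Of 40 cytokine and inflammasome genes tested, 8 (20%, against 6.55% of all genes) had a lower effect in microglia (Ccl3, Ccl12, Cxcl2, Cxcl14, Cxcl16, Csf1, Nlrp3 and Ptgs2) and none a higher one, with a median of -0.82, and 32 were not called. In microglia 17 fell and 3 rose, and in astrocytes 6 rose and 1 fell. With 1 library left out the lower count ran from 6 to 11, and the rises in astrocytes went to 3 without knock-out replicate 1. Those in microglia (Ccl6, Il18 and Pycard) went to 1 without APOE33 replicate 6 or knock-out replicate 3. Ptgs2, the inducible cyclooxygenase, ran from 8.07 to 15.3 CPM (median 10.8) in APOE33 microglia and stood at 1.36, 0.951, 1.27 and 1.33 in the knock-out. It fell by 3.16 (SE 0.34, adjusted p = 3.26e-05), to the level of the astrocytes (0.791 to 1.91 CPM in either genotype). Nlrp3, an inflammasome sensor, fell in microglia from 96.3 to 39.2 CPM, and Il1b, the gene for interleukin-1 beta, fell by 1.61 without a call in the interaction.

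Of the 2 opposite members, Cxcl14, a chemokine, ran from 33.7 to 75.6 CPM (median 55) in APOE33 astrocytes against 110, 85.1, 94.2 and 82.0 in the knock-out. In microglia it ran from 145 to 184 CPM (median 161) against 114, 94.7, 141 and 118. The groups were apart in each cell type, in opposite order, and the astrocyte call was lost without knock-out replicate 1 (adjusted p = 0.104). Cxcl16, a membrane-bound chemokine, rose from 3.16 ± 0.177 to 4.83 ± 0.331 CPM in astrocytes and fell from 557 ± 31.3 to 491 ± 16.5 in microglia, the latter with an adjusted p of 0.114 without knock-out microglia replicate 1. The part of microglia in the low astrocyte level of Cxcl16 was not tested. Cd14, the lipopolysaccharide co-receptor, stood at 874, 655 and 829 CPM in APOE33 microglia replicates 1 to 3, at 450, 407 and 371 in replicates 4 to 6, and at 192, 229, 219 and 233 in the knock-out. It fell by 1.54 (SE 0.26, adjusted p = 0.000863), and the APOE33 libraries lay further from each other than the lowest of them lay from the knock-out.

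Disease-associated microglia genes, the set that rises around amyloid plaques and depends on Trem2, went both ways. Of 32 tested, 2 had a higher effect in microglia (Axl and Fabp5) and 8 a lower one, with a median of -0.14. In microglia 7 rose and 7 fell, and in astrocytes 9 rose and 2 fell. Of the 8, Lilrb4a, Spp1, Igf1, Ctsz and Lyz2 rose in astrocytes and had no call in microglia, and Csf1, Ccl3 and Ch25h fell in microglia. Lyz2, a lysozyme gene with a close copy and therefore uncertain, rose in astrocytes from 107 to 234 CPM against 60200 and 74200 in microglia. Beside these rises, the summed level of the 18 microglia and macrophage markers in astrocytes was 373 ± 184 CPM in APOE33 (207 to 709) and 492 ± 141 in the knock-out (314 to 637), all 18 of its estimates there were above 0 with a median of 0.68, and none of the 18 was at 0. The part of such cells in the astrocyte rises was not tested. The count of 8 went to 4 without knock-out astrocyte replicate 1 and to 5 without APOE33 astrocyte replicate 3 or knock-out astrocyte replicate 2. The 9 astrocyte rises went to 3 without APOE33 replicate 3, to 4 without knock-out replicate 1 and to 5 without knock-out replicate 4. Axl, a receptor for apoptotic cells, rose in microglia from 526 ± 112 to 844 ± 217 CPM with overlapping groups, and its microglia call was lost without APOE33 replicate 6 (adjusted p = 0.057).

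Among 24 antigen presentation genes 1 had a higher effect in microglia (Tapbp) and 4 a lower one (H2-Eb1, H2-DMb1, H2-DMb2 and Cd74), with a median of -0.01. In microglia 7 rose and 2 fell, and in astrocytes 1 rose and none fell. H2-DMb1, which loads peptide on class II molecules, rose in astrocytes from 1.00 ± 0.203 to 2.30 ± 0.501 CPM and stood at 65.2 ± 10.6 and 74.0 ± 5.64 in microglia. The 18 microglia and macrophage markers summed to 373 ± 184 CPM in APOE33 astrocytes and 492 ± 141 in knock-out astrocytes. The part of such cells in the low astrocyte level of H2-DMb1 was not tested. H2 genes share near-identical stretches, so their counts are uncertain. Cd74, the class II invariant chain, had an interaction of -1.88 (adjusted p = 0.0181) at 0.366 CPM or less on average in astrocytes, and H2-DMb2 stood at 0.0733 or less on average there. The call of Tapbp was lost without knock-out astrocyte replicate 1, APOE33 microglia replicate 6 or knock-out microglia replicate 1, and that of Cd74 without APOE33 astrocyte replicate 3 or knock-out astrocyte replicate 2. Neither fall in microglia, of Cd74 and H2-Oa, was left without APOE33 replicates 1, 2 or 3 or knock-out replicates 1, 2 or 3, and 1 was left without APOE33 replicates 4 or 5.

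Of 39 complement, Fc receptor and engulfment genes 3 were higher (C1ra, C3 and Axl) and 3 lower (Cfp, Pros1 and Cd33), with a median of -0.27. Each is 7.7% of the list, near the shares of 6.18% and 6.55% over all genes. In microglia 10 rose and 6 fell, and in astrocytes 7 rose and 1 fell. Pros1, protein S, a bridging ligand of the engulfment receptors, ran from 73.8 to 92.3 CPM (median 78.7) in APOE33 astrocytes and stood at 95.8, 111, 110 and 97.0 in the knock-out. In microglia it ran from 179 to 218 CPM (median 201), and the knock-out had 178, 138, 163 and 168. The groups were apart in both, rising in astrocytes and falling in microglia. C1ra, a protease of the first complement component, rose in both, by 2.03 (adjusted p = 9.18e-06) in microglia and by 0.77 (adjusted p = 0.0195) in astrocytes. The astrocyte call was lost without APOE33 replicate 3 (adjusted p = 0.0597) or knock-out replicate 3 (0.0523). Cfp, properdin, fell in microglia from 135 ± 22.8 to 88.9 ± 15.2 CPM, with an adjusted p of 0.109 without knock-out replicate 1. The 7 astrocyte rises went to 4 without APOE33 replicate 3 or knock-out replicate 3, and the lower count to 5 without APOE33 astrocyte replicate 2.

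Lysosomal genes rose in both cell types in part. Of 35 tested, 6 had a higher effect in microglia (Lamp1, Lamp2, Gaa, Glb1, Psap and Grn) and 4 a lower one (Ctsf, Ctsh, Ctsz and Gusb), with a median of -0.04. In microglia 15 rose and 5 fell, and in astrocytes 8 rose and none fell. Psap, the precursor of the saposins that help break down sphingolipids, ran from 5650 to 8250 CPM in APOE33 microglia and stood at 10700, 8270, 9300 and 9790 in the knock-out. The highest APOE33 library nearly reached the lowest knock-out library. Lamp1, a lysosomal membrane protein, rose in microglia from 1770 ± 136 to 2340 ± 239 CPM, and Glb1, beta-galactosidase, from 224 ± 32.5 to 338 ± 22.7. Without knock-out microglia replicate 1 the higher count went to 3. The lower count went to 2 without APOE33 replicate 3 of either cell type. The astrocyte rises went to 2 without APOE33 replicate 3, to 3 without knock-out replicate 1 and to 5 without knock-out replicate 4, and the microglia falls to 2 or 3 without APOE33 replicate 3 or any knock-out replicate.

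Of 28 genes of glycolysis and lactate export, 11 had a higher effect in microglia (39.3%, against 6.18% of all genes) and 1, the glucose transporter gene Slc2a3, a lower one, with a median of 0.27, and 16 were not called. In microglia 12 rose and 3 fell, and in astrocytes 1 rose and 5 fell. Ldha, lactate dehydrogenase A, ran from 360 to 462 CPM in APOE33 microglia and stood at 577, 484, 566 and 564 in the knock-out, all above the APOE33 range. In astrocytes it fell from 188 ± 17.3 to 163 ± 4.09 CPM with overlapping groups, and that call was lost without knock-out replicate 1 (adjusted p = 0.0572). Pgam1, phosphoglycerate mutase, rose in microglia from 138 ± 18.5 to 210 ± 17.5 CPM. Aldoa and Ldha were the 2 opposite members. Counts of Ldha, Aldoa, Gapdh, Pgk1, Tpi1 and Pgam1 are uncertain because processed copies of these genes exist. Without knock-out microglia replicate 1 the higher count went to 6, and the astrocyte falls to 2 without knock-out replicate 1, to 3 without APOE33 replicate 3 and to 8 without APOE33 replicate 2. The microglia falls went to 1 without APOE33 replicate 3 or knock-out replicates 2 or 3.

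Of 27 NRF2 and metallothionein genes 7 had a higher effect in microglia and 1, Gclc, a lower one, with a median of 0.30. In microglia 9 rose and 1 fell, and in astrocytes none rose and 9 fell. Mt1, a metal-binding metallothionein, ran from 550 to 903 CPM (median 736) in APOE33 astrocytes and stood at 370, 392, 389 and 308 in the knock-out. In microglia it ran from 36.3 to 39.5 CPM (median 38.3) and stood at 50.2, 44.3, 43.5 and 47.5. The groups were apart in both cell types, with a change of -1.09 (SE 0.19, adjusted p = 0.00237) in astrocytes and of 0.27 (SE 0.056, adjusted p = 0.00277) in microglia. Mt2 fell in astrocytes from 39.4 ± 5.50 to 17.8 ± 2.04 CPM and was at most 0.304 CPM in every microglia library.

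Gsta3, a glutathione transferase, had an interaction of 3.33 (SE 0.69, adjusted p = 0.0016). It fell in astrocytes from 6.97 ± 1.32 to 3.74 ± 0.333 CPM, and in microglia it ran from 1.99 to 10.2 CPM (median 3.03) against 27.2, 21, 24.4 and 23.7. The groups were apart in both, and the microglia call was lost without knock-out replicate 1 (adjusted p = 0.0794). Cat, catalase, fell in astrocytes from 110 ± 3.62 to 93.0 ± 2.82 CPM and rose in microglia from 526 ± 81.2 to 701 ± 53.1, the latter with an adjusted p of 0.11 without knock-out replicate 1. Gsta and metallothionein genes have close copies, so their counts are uncertain. The 9 astrocyte falls went to 5 without knock-out replicates 2 or 3, and the opposite genes (Gsta3, Gsta4, Cat and Mt1) from 4 to 2 without knock-out microglia replicate 1. The call of Gclc was lost without knock-out astrocyte replicate 1.

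Among 33 unfolded protein and integrated stress genes 6 had a higher effect in microglia and 6 a lower one, with a median of -0.04. The higher ones were mainly chaperones of the endoplasmic reticulum (Hsp90b1, Pdia6, Calr, Canx and Manf, with Atf5). The lower ones (Herpud1, Atf4, Ddit3, Trib3, Asns and Ppp1r15a) include the stress factors Atf4 and Ddit3. In microglia 6 rose and 12 fell, and in astrocytes 3 rose and 9 fell, the rises going to 1 without knock-out replicate 1. Ppp1r15a, which reverses the stress block on translation, ran from 31.8 to 57.4 CPM (median 45.0) in APOE33 microglia and stood at 19.8, 16.3, 19.4 and 19.5 in the knock-out. Astrocytes of both genotypes overlapped at 38.3 to 54.5 CPM. The microglia fall was 1.32 on the log2 scale, from 45.1 ± 10.4 to 18.7 ± 1.63 CPM. Asns, asparagine synthetase, rose by 0.51 in astrocytes and fell by 0.84 in microglia (adjusted p = 0.0411), a fall whose call was lost without any of APOE33 replicates 2 to 6 or knock-out replicates 2 or 3.

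Immediate early genes, which respond within minutes to stimuli and to cell handling, fell in part. Of 31 tested, 13 fell in astrocytes (8.83% of all genes did) and 1 rose, with a median of -0.58. In microglia 18 fell (11.9% of all genes did) and none rose, with a median of -0.58. The interaction was called for 5: Fos and Zfp36 were higher in microglia and Nr4a2, Nr4a3 and Klf4 lower, with a median of -0.22. Fos fell by 3.24 in astrocytes and by 1.23 in microglia. Zfp36, which destabilises cytokine mRNA, ran from 25.5 to 46.2 CPM (median 32.5) in APOE33 astrocytes and stood at 9.07, 10.9, 10.8 and 13.3 in the knock-out. In microglia the change of -0.44 had an adjusted p of 0.245, and the groups overlapped. Klf4 fell by 2.29 in microglia and by 0.89 in astrocytes, the latter with an adjusted p of 0.0686 without knock-out replicate 1.

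Nr4a2, an orphan nuclear receptor, was the opposite member of that list. It ran from 1.44 to 2.15 CPM in APOE33 astrocytes against 4.26, 2.96, 3.15 and 2.95, and from 3.18 to 5.79 in APOE33 microglia against 2.14, 3.01, 1.75 and 2.38. Its groups did not overlap. Without knock-out astrocyte replicate 1 the immediate early falls in astrocytes went from 13 to 7 and the lower count from 3 to 6, and without APOE33 astrocyte replicate 6 the higher count went from 2 to 5.

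Of 37 reactive astrocyte genes 4 had a higher effect in microglia (S1pr3, Gfap, Fbln5 and Emp1) and 5 a lower one (Clcf1, Sphk1, Ptgs2, Cd14 and Stat3), with a median of 0.05. In astrocytes 6 rose and 2 fell, and in microglia 4 rose and 6 fell. Clcf1, a cytokine of the interleukin-6 family, rose in astrocytes from 29.4 ± 6.24 to 45.2 ± 7.82 CPM and fell in microglia from 2.57 ± 1.32 to 0.742 ± 0.106. The astrocyte call was lost without APOE33 replicate 3 or knock-out replicates 3 or 4 (adjusted p = 0.0601 to 0.0848). Emp1, a membrane protein, was the other opposite gene, falling from 65.1 to 32.1 CPM in astrocytes and rising from 21.6 to 37.5 in microglia. The higher count went to 1 without any of knock-out astrocyte replicates 1 or 4, APOE33 microglia replicate 3 or knock-out microglia replicates 1 or 4, to 2 without APOE33 microglia replicate 1 and to 7 without APOE33 microglia replicate 6. In astrocytes the 6 rises went to 3 without APOE33 replicate 3 or knock-out replicates 1 or 3, and the 2 falls to 5 or 6 without APOE33 replicate 6 or knock-out replicate 2.

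Matrix genes showed few differences beyond the background share. Of 63 collagens and matrix glycoproteins 7 were higher and 5 lower, with a median of 0.00. In astrocytes 7 rose and 11 fell, and in microglia 6 rose and 4 fell. Ccn2, a matricellular target of TGF-beta and YAP, ran from 809 to 1410 CPM (median 1110) in APOE33 astrocytes and stood at 778, 780, 779 and 658 in the knock-out. In microglia it ran from 0.906 to 1.70 CPM (median 1.35) against 3.47, 2.12, 1.87 and 3.55. The groups were apart in both cell types, although microglia levels were low. Thbs2, a thrombospondin, rose in astrocytes from 11.5 ± 4.95 to 25.3 ± 3.60 CPM and fell in microglia from 1.09 ± 0.233 to 0.342 ± 0.170. Its astrocyte call was lost without APOE33 replicate 3 (adjusted p = 0.0583) or knock-out replicate 1 (0.133).

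The higher matrix count went to 2 without knock-out microglia replicate 1, to 3 without knock-out microglia replicate 4 and to 4 without knock-out astrocyte replicate 1, the astrocyte falls to 6 without knock-out replicate 1, and the astrocyte rises to 11 without APOE33 replicate 5. The microglia rises went to 3 without knock-out replicate 4 and the falls to 2 without APOE33 replicate 3. Col8a1, a collagen at 0.931 CPM or less in every microglia library, lost its interaction without knock-out microglia replicate 1 (adjusted p = 0.0531). Of 17 proteoglycans 1, Prelp, was higher and none lower (median -0.18): it fell in astrocytes from 414 ± 61.1 to 284 ± 52.1 CPM, and its interaction was lost without knock-out microglia replicate 1 (adjusted p = 0.0794). In astrocytes 1 proteoglycan rose and 2 fell, and none was called in microglia.

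Of 42 matrix proteases and inhibitors 3 were higher (Mmp14, P4ha2 and Plod2) and 1, Adamts4, lower, with a median of 0.14. In microglia 7 rose and none fell, and in astrocytes 6 rose and 1 fell, the rises going to 3 without knock-out replicate 1. Mmp14, a membrane-bound collagenase, ran from 145 to 196 CPM (median 177) in APOE33 microglia and stood at 293, 479, 425 and 390 in the knock-out. Astrocytes overlapped, with 101 to 116 CPM in APOE33 and 88.3, 116, 107 and 117 in the knock-out. The interaction was 1.33 (SE 0.16, adjusted p = 4.81e-06). P4ha2, a collagen prolyl hydroxylase, rose in microglia from 5.51 ± 1.63 to 12.6 ± 0.892 CPM. Plod2, a lysyl hydroxylase at 0.294 to 3.05 CPM in microglia, lost its interaction without APOE33 microglia replicates 3 or 6, knock-out microglia replicates 1 or 4 or knock-out astrocyte replicate 1 (adjusted p = 0.061 to 0.122).

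No type I interferon gene was called in the interaction by edgeR (0 of 39, median 0.05), where 12.7% of all genes were, while 2 reached an unadjusted p under 0.05 and 1 was called by DESeq2. In astrocytes 1, Ifit2, fell, and in microglia 3 rose (Ifi44, Stat2 and Bst2), and each of these counts went to 0 or 1 without several of the libraries. None rose in astrocytes, or 4 without APOE33 replicate 2, whose summed level of the list was the highest of its group (2040 CPM, where replicate 6 had the lowest, 609). Ifi207 had the smallest adjusted p of the list, 0.0821. None of the 13 mitochondrial genome genes was called by edgeR (median 0.05) or by DESeq2, and 1 had an unadjusted p under 0.05. In astrocytes 2 of them rose, and in microglia 2 rose and 1 fell. The smallest adjusted p belonged to mt-Cytb (0.095). Of 38 cell cycle genes 1 was higher and 2 lower, with a median of -0.71 and 35 of 38 estimates below 0 in microglia. In astrocytes 5 rose and 1 fell, and in microglia 1 rose and 2 fell. The lower count ran from 0 without knock-out microglia replicates 1 or 4 to 12 without knock-out microglia replicate 2, and the astrocyte rises from 0 without APOE33 replicates 1, 3 or 6 or knock-out replicates 2 or 3 to 12 without knock-out replicate 1. Ccnb2, a mitotic cyclin, stood at 11.7, 5.34, 5.55, 3.01, 2.35 and 1.33 CPM in APOE33 microglia and at 0.532, 3.45, 3.08 and 0.759 in the knock-out, so the groups overlapped. Mcm7, of the replicative helicase, and Pcna, the replication clamp, each lost the interaction without several libraries.

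**Figure D5:**
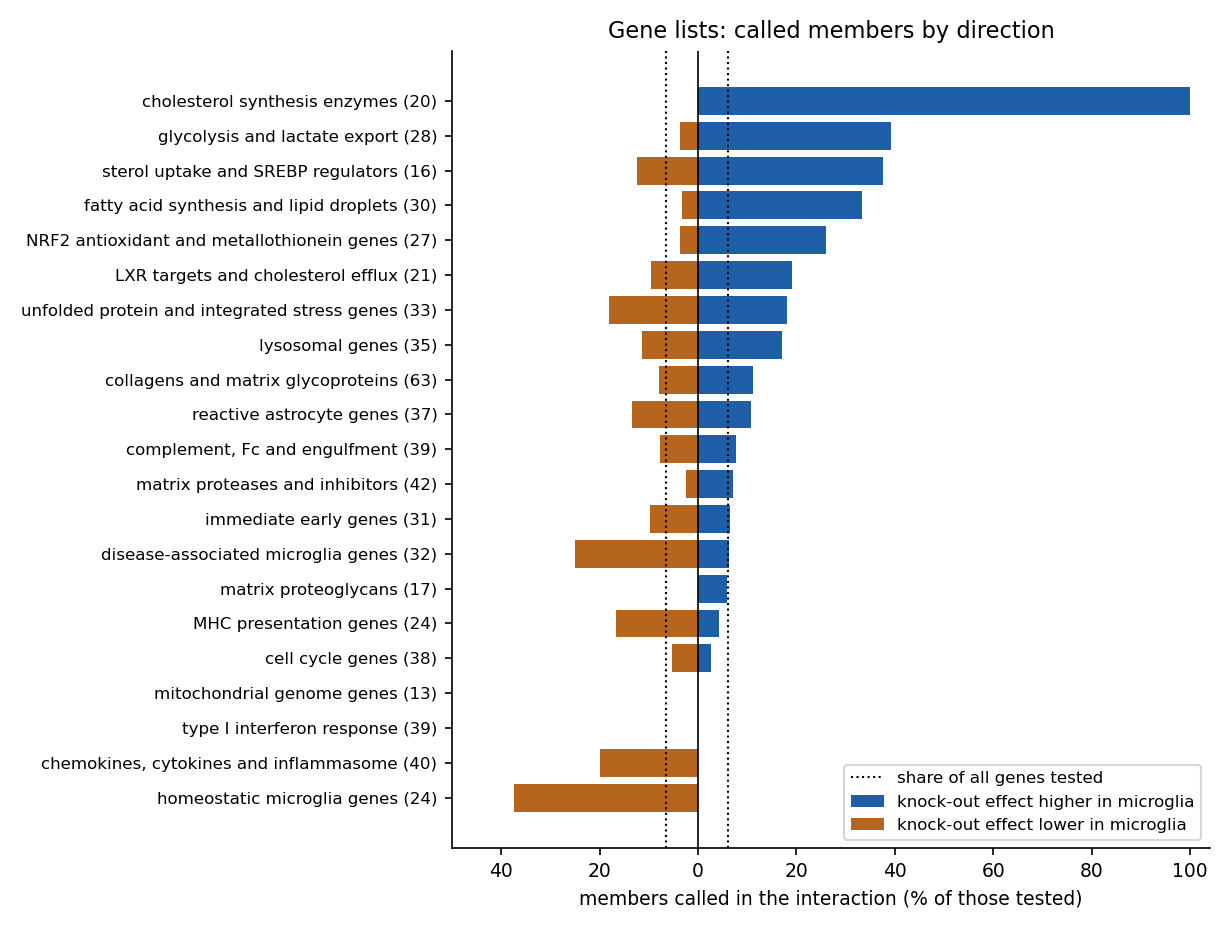
Percentage of the tested members of each gene list that had a higher (right) or lower (left) knock-out effect in microglia than in astrocytes at an adjusted p under 0.05, with dotted lines at the shares over all genes tested (6.18% and 6.55%). Cholesterol synthesis enzymes reach 100% on the right, and homeostatic microglia genes reach 37.5% on the left.

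Markers of the cultured lineages and of other brain cells were compared in the same way. Of 18 astrocyte markers 4 had a higher effect in microglia (Gfap, Aldh1l1, Gja1 and Aldoc) and none a lower one, with a median of 0.27. In astrocytes 2 rose and 3 fell, and in microglia 2 rose and none fell. Summed over the list, microglia held 39.5 to 156 CPM in APOE33, where replicate 2 had the highest value, and 100 to 153 in the knock-out. The part of astrocytes in these microglia libraries was not tested. Aldh1l1, a folate enzyme, rose in both cell types, from 307 ± 47.6 to 437 ± 50.6 CPM in astrocytes and from 8.16 ± 2.64 to 30.9 ± 3.74 in microglia. Its astrocyte call was lost without APOE33 replicate 3 (adjusted p = 0.0543). Gja1, connexin 43, fell in astrocytes from 262 ± 72.0 to 125 ± 18.8 CPM, and Aldoc, the brain aldolase, rose in microglia from 16.3 ± 3.63 to 49.5 ± 8.91 CPM against 4880 ± 970 and 4500 ± 1070 in astrocytes.

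Of 18 microglia and macrophage markers 5 had a lower effect in microglia (Aif1, Ptprc, P2ry12, Tmem119 and Spi1) and none a higher one. All 18 interaction estimates were below 0, with a median of -0.80. In astrocytes 1 rose, with all 18 estimates above 0 and a median of 0.68. In microglia 1 rose and 5 fell, with 13 of the 18 estimates below 0 and a median of -0.09. The count of 5 went to 2 without APOE33 astrocyte replicate 3, knock-out astrocyte replicate 2 or knock-out microglia replicate 1, and to 3 without APOE33 astrocyte replicate 6, knock-out astrocyte replicate 4, APOE33 microglia replicate 3 or knock-out microglia replicates 3 or 4. Aif1, the calcium-binding protein IBA1, stood at 258 ± 14.8 and 265 ± 20 CPM in microglia and at 0.649 ± 0.297 and 1.26 ± 0.438 in astrocytes. Its change was 1.08 (adjusted p = 0.0399) in astrocytes and -0.01 in microglia, with an interaction of -1.09. The part of microglia in its low astrocyte level was not tested. The astrocyte call was lost without any astrocyte library but APOE33 replicate 2 or knock-out replicate 3 (adjusted p = 0.0508 to 0.138), and the interaction without APOE33 replicate 3 or knock-out replicates 1 or 2 of astrocytes or knock-out microglia replicate 1 (0.0667 to 0.0892). Of 8 border macrophage and monocyte markers 1, Cbr2, was higher and 1, Ms4a7, lower (median -0.20), and each call was lost without most of the libraries in turn. In microglia 5 of them rose, or 3 without APOE33 replicate 3, and in astrocytes 1 rose.

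Some oligodendrocyte lineage markers fell in each culture. Of 16 tested, 1 (Cnp) was higher and 3 (Mog and Ermn among them) lower, with a median of -1.49. In microglia 7 fell, or 3 without knock-out replicate 1, and in astrocytes 5 fell, or 1 without knock-out replicate 1 and 2 without APOE33 replicate 3 or knock-out replicates 3 or 4. In knock-out microglia Mog, Gpr17, Bmp4, Ermn and Opalin were at 0 in all libraries. The list summed to 243 to 349 CPM in APOE33 and 218 to 256 in knock-out microglia. The lower count of 3 went to 1 without knock-out microglia replicate 3. Ependyma and choroid plexus markers summed to 221 to 317 CPM in APOE33 astrocytes and 98 to 206 in the knock-out, and 2 of 8, Foxj1 and Folr1, were higher in the interaction (median 1.90). The interaction of Folr1 was lost without APOE33 replicate 3 or knock-out replicates 1 or 4 in astrocytes, or APOE33 replicate 6 or knock-out replicates 1 or 4 in microglia (adjusted p = 0.0506 to 0.107). Foxj1, the regulator of motile cilia, fell in astrocytes from 231 ± 25.4 to 142 ± 39.1 CPM, and was called higher in microglia from 0.443 ± 0.145 to 0.994 ± 0.508 CPM, a call lost without APOE33 replicate 3 or knock-out replicates 1 or 4 (adjusted p = 0.0624 to 0.277).

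Of 9 neuronal markers none was higher and 2 lower (Slc17a7 and Nefm, both under 0.5 CPM in every library), with a median of -0.83. Of 9 endothelial markers none was called in the interaction by edgeR (median 0.68, with 0.0671 for Cdh5 as the smallest adjusted p), while 3 reached an unadjusted p under 0.05 and 1 was called by DESeq2, and Cdh5 and Tie1 were at 0 in all knock-out astrocytes. Of 11 mural and meningeal fibroblast markers 1, Acta2, was higher (median -0.13). Acta2, smooth muscle actin, fell in astrocytes from 183 ± 30.3 to 110 ± 44.3 CPM, where knock-out replicate 1 had 54.8, and that call was lost without APOE33 replicates 1, 2 or 3 or knock-out replicates 1 or 4 (adjusted p = 0.053 to 0.145). Its rise in microglia, from 0.665 ± 0.103 to 1.06 ± 0.194 CPM, was lost without APOE33 replicate 3 or knock-out replicates 1, 3 or 4 (adjusted p = 0.0571 to 0.0924).

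Of the 2755 genes, 801 were outside the shared genes, 369 of them far higher in microglia or under 1 CPM in astrocytes and 432 the reverse. The largest interactions among these rest on counts near 0. Cacng6, Mdh1b and Cfap206 were at 1.40, 1.82 and 4 CPM on average in APOE33 astrocytes and at most 0.133 CPM in any microglia library. Matn4, Igf2bp1 and Gata2 were at 0 in all 4 knock-out microglia libraries and at most 0.188 CPM in the APOE33 ones. No fold is given for these 6 genes. Apod, an apolipoprotein on the LXR list, stood at 0.377 and 0.00595 CPM in microglia.

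Against APOE44 in place of APOE33, the interaction was called for 3822 of 21647 genes (17.7%). Both contrasts use the same knock-out libraries. Side by side, the interaction of Myadm was 1.91 against APOE33 and 1.06 against APOE44, that of Mgst1 1.51 and 1.41, that of Mvd 2.06 and 1.88, and that of Map3k5 -1.28 and -1.61. Eps8l1, an actin regulator, rose in both cell types against APOE33, from 0.587 ± 0.050 to 6.15 ± 2.03 CPM in astrocytes and from 0.0511 ± 0.024 to 4.10 ± 1.62 in microglia. Its interaction was 2.99 (adjusted p = 1.03e-05) against APOE33 and -0.71 (adjusted p = 0.0953) against APOE44.

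Several named genes lie on the chromosome of Apoe, chromosome 7. Mill2 lies 0.84 Mb from Apoe, Axl 6.08 Mb, Zfp36 8.68 Mb, Eps8l1 15.23 Mb, Cacng6 16.27 Mb and Myadm 16.4 Mb. Within 5 Mb of Apoe 19 of 132 genes tested were called in the interaction (14.4%), from 5 to 20 Mb away 58 of 435 (13.3%), on the rest of the chromosome 139 of 1152 (12.1%) and on the other chromosomes 2538 of 19912 (12.7%). The opposite genes made up 2.27%, 2.53%, 1.39% and 1.49% of all genes tested for the interaction in these regions. The 2.04% given above was of the 16067 genes tested in both cell types, a smaller set. Genes called in both cell types made up 6.06%, 7.36%, 3.39% and 4.18% of the genes tested for the interaction. The part of sequence linked to Apoe in these shares was not tested.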

How the data were processed

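RNA was measured by paired-end sequencing (NEBNext Ultra libraries, HiSeq 4000), per the labels' protocols. The authors deposited raw read counts per gene, made with STAR 2.5.3a and featureCounts per the submitters' processing notes. Neither the mouse genome build nor the strand setting of the counting is given in the sources used here, so reads of overlapping genes (among them Mvd, Rell1, Hivep2, P2ry12, Golm1, Cxcl16, Npc1 and Lamp1) cannot be told apart. Of 54146 identifiers 54079 matched GENCODE M21 (GRCm38), which gave symbols and positions. Libraries held 88991799 to 120505499 counts.

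Counts were fitted with edgeR 4.0.16 (R 4.3.3, limma 3.58.1): TMM scaling, removal of low genes by filterByExpr, robust quasi-likelihood F tests and Benjamini-Hochberg adjustment over all genes tested, called at an adjusted p under 0.05. The interaction came from 1 fit of the 32 batch 1 libraries with sex within cell type, and the effect in each cell type from a fit of its own 16 libraries. Each SE was taken as the size of the log2 change over the root of its F. CPM used the scaling of the joint fit. The scripts were tested on simulated counts.

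Named were Apoe, the 12 opposite shared genes and the 10 shared genes of any class with the smallest interaction p, the 6 shared genes with the largest positive and the 6 with the largest negative interaction, 3 of each outside the shared genes, and in each list up to 3 called members, or else the 1 with the smallest p, leaving predicted genes and Y-linked genes out. Some genes that this rule picks or that belong to the lists are counted there and not reported here by name. Other list members named were chosen after their values were seen. The lists cover the pathways and cell types given in the report, and members and lists were chosen with earlier results of these data known. Alternatives were DESeq2 1.42.0, other scalings and filters, fewer libraries, no sex term, male libraries, voom with quality weights, replicate blocks and each library left out.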

Additional observations from a re-analysis of the deposited data

Results flagged for a closer look

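The knock-out effect differed between the cell types for 2755 genes by the test of the interaction itself, and 327 of the genes were called in both cell types with opposite signs.

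A library far from the others of its group was looked for in 504 groups of named genes and summed lists, and 34 were found (6.75%), where chance gives about 1 in 20. Knock-out astrocyte replicate 1 was the highest of its group for Aldoc (6100 CPM), Cd34 (68.4), Nr4a2 (4.26) and the summed glycolysis genes (13900) and the lowest for Nr1h3 (10). Replicate 2 of that group stood highest for Fdps (1.14) and Tmem119 (5.69), and replicate 4 lowest for Ccn2 (658). Among APOE33 astrocytes, replicate 2 was highest for Cfap206 (8.22), Cxcl16 (3.52) and Pgbd5 (3.22) and lowest for P4ha2 (21.7). Replicate 5 was highest for Col8a1 (90.1), the summed cell cycle genes (754) and the mural and meningeal fibroblast markers (366).

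Among APOE33 microglia, replicate 2 was highest for Dusp8 (3.73 CPM), Eps8l1 (0.0984), Matn4 (0.172), the summed astrocyte markers (156) and the summed neuronal markers (9.4). Replicate 3 was highest for Apoe (81.3), Folr1 (0.412), Igf2bp1 (0.188), Zfp36 (341) and the summed complement and engulfment genes (33800). Replicate 5 was highest for Cfap206 (0.0199), Gsta3 (10.2) and Hp (3.49), and replicate 6 was highest for Prelp (0.971) and lowest for the summed chemokine and cytokine genes (1810). In knock-out microglia replicate 2 was lowest for Ldha (484) and Ppp1r15a (16.3), and replicate 4 was lowest for Ets1 (25.5) and highest for Mt2 (0.304).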

How the results depend on the processing

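Of 3045 values of the 99 named genes under alternatives, 2825 kept direction and side of the threshold, 211 lost the call, 9 gained it and 0 reversed, and 49 genes kept theirs under every alternative. The interaction count of 2755 was 1769 when only the knock-out and APOE33 libraries were fitted, 841 in male libraries and 3739 with DESeq2. The opposite count of 327 was 210 with no filter on low counts, 131 in the 2-genotype fit, 67 in male libraries, 133 with the replicate block inside each cell type and 462 with DESeq2. In astrocytes alone 3522 calls became 1760, 2124 and 1892 in the 2-genotype, male and replicate block fits, and 4544 with DESeq2. In microglia alone 3899 became 1068 in male libraries, and against APOE44 3822 became 2003. With 1 library left out the interaction count ran from 2074 to 2947, the opposite count from 166 (without knock-out astrocyte replicate 1) to 354, astrocytes alone from 1836 (without that replicate) to 3688, with 2347 without APOE33 replicate 3, microglia alone from 2724 to 3855 and the count against APOE44 from 2925 to 3762. Enzymes of cholesterol synthesis called in the interaction ran from 17 to 20, and those of opposite sign from 9 to 14. The causes were not tested.

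With the replicate block inside each cell type the interaction count was 1917, that of microglia 2714 and that against APOE44 2742, and with the block across cell types 2169 and 3007, where no opposite count could be made. Of the 2169, 2018 were among the 2755. Deviations of same-numbered libraries correlated positively across cell types for all 16 numbers, at 0.027 to 0.398, and the sex tag matched for all 16. APOE33 replicates 2 (0.095) and 4 (0.027) stayed under the 0.1 required of every pair, and the labels do not say that a number marks 1 animal, so the numbers were not taken as pairs. Between knock-out and APOE33 the correlations were -0.259 to 0.319, and not every library correlated best with its own number.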
